A study of Mus musculus with 4 samples.

Results

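The regions described here are the H3K27me3 peaks of a mouse pre-B acute lymphoblastic leukemia culture that shared at least 1 bp with an H3K27ac peak and none with a PHF6 peak. They number 249 of the 5616 H3K27me3 peaks on the assembled chromosomes, or 4.43% (95% exact binomial interval 3.91 to 5.01). The culture came from the C57BL/6J strain, lacked p19 and was transformed by overexpression of BCR-ABL1. Every library shares that background, and there was no untransformed or PHF6-deficient comparison. Chromatin immunoprecipitation and sequencing (ChIP-seq), which recovers crosslinked DNA fragments with an antibody, was done with antibodies to PHF6, H3K27ac and H3K27me3, with 1 library each. The fourth library, input DNA without antibody, was not analysed here. With 1 library per antibody there is no replicate error and no test between groups. Intervals cover counting error only, and neighbouring peaks are not independent.

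Lysine 27 of histone H3 can be acetylated or trimethylated, but a single lysine cannot carry both. Acetylation marks active promoters and enhancers. Trimethylation is deposited by Polycomb repressive complex 2 and marks silenced developmental genes. PHF6 is a nuclear protein with PHD-type zinc fingers, which is mutated in human leukemias and has been linked to chromatin remodelling in the nucleolus and the nucleoplasm. Peaks of these marks that overlap in a bulk culture can come from neighbouring nucleosomes, from the 2 alleles or from different cells, and peak lists do not separate these cases.

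The overlaps themselves follow from the rule and are given as a description. Of all H3K27me3 peaks, 1180 (21.0%) met an H3K27ac peak and 1458 (26.0%) met a PHF6 peak, and 3.58% of the H3K27ac peaks met H3K27me3. The 249 peaks are 21.1% (18.8 to 23.5) of the acetylated ones. The other 931 acetylated H3K27me3 peaks held PHF6, 527 H3K27me3 peaks held PHF6 without H3K27ac, and 3909 met neither list. A single H3K27ac peak was met by 243 of the 249, and 6 met 2. In all, the 249 touched 231 different H3K27ac peaks.

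Some peaks sat close to the limits of the rule. The smallest overlap with H3K27ac was 4 bp, on chromosome 3 at 58325927 to 58328089, followed by 7 bp on chromosome 1 at 88253215 to 88254337. Outside that limit, the nearest H3K27me3 peak with neither mark lay 8 bp from H3K27ac, on chromosome 8 at 47314938 to 47315830. In all, 20 of the 249 shared under 100 bp with H3K27ac. On the PHF6 side, the nearest PHF6 edge lay 5 bp away, on chromosome 4 at 3802779 to 3803554. The next were 2 peaks at 9 bp, on chromosome 12 at 80230724 to 80231317 and on chromosome 7 at 149468496 to 149469689. Just outside, an acetylated H3K27me3 peak on chromosome 10 at 23505379 to 23506057 shared 8 bp with PHF6. A PHF6 edge lay within 100 bp of 18 of the 249.

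The set held 2 arrangements that the rule does not separate. For 73 of the 249 (29.3%, 23.7 to 35.4) the H3K27ac peak that was met contained PHF6 elsewhere along its length, outside the H3K27me3 peak. For the other 176 (70.7%, 64.6 to 76.3) the H3K27ac peak held no PHF6 at all. A called PHF6 peak was therefore absent from the H3K27me3 interval in the first arrangement, and from the whole acetylated peak in the second. Absence of PHF6 here means that no peak was called, and signal below the calling threshold was not examined. In the first arrangement it rests on where peak edges were called, since PHF6 edges were often close, as given below. Of all H3K27ac peaks, 28.3% overlapped no PHF6 peak, and 1.77% of those met H3K27me3. The 28.3% counts H3K27ac peaks that were not chosen for a stretch without PHF6, so it cannot be set against the 70.7%. Among H3K27ac peaks the share without PHF6 was lower where H3K27me3 was met, as given further on.

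Where the acetylated partner held PHF6, H3K27me3 mostly lay on the flank of a tall, wide H3K27ac peak. Summit height, the authors' whole-number pileup at the top of a peak, had a median of 299 in the H3K27ac partners of these 73 (quartiles 212 and 339). The score, the peak caller's own value per peak, was at its ceiling near 3100 for 59 of the 73 partners (80.8%, 69.9 to 89.1). Set against H3K27ac peaks that held PHF6 and met no H3K27me3, a partner was the taller in 80.5% of pairs and the wider in 81.3%. A partner has to reach both PHF6 and an H3K27me3 peak apart from it, which by itself favours wide peaks. Heights were not compared at equal width, so both shares describe the selected peaks. Partners had a median width of 2783 bp (quartiles 2167 and 3597), and the shared stretch a median length of 292 bp (110 and 584). H3K27ac covered a median of 28.9% of the H3K27me3 peak. In 47 of 73 (64.4%, 52.3 to 75.3) neither summit lay inside the other peak, and the H3K27ac summit lay inside the H3K27me3 peak in 2 of 73. The H3K27me3 summit lay inside the H3K27ac peak in 26 of 73 (35.6%, 24.7 to 47.7). Partial overlap accounted for 61 of the 73, and the remaining 12 H3K27me3 peaks lay wholly inside the H3K27ac peak. For short, all 73 are called the flanking arrangement below, although not each of them lay on a flank.

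In these partners PHF6 often sat near the acetylation summit. Since the rule keeps PHF6 out of the H3K27me3 peak, such a position of PHF6 by itself places H3K27me3 away from the H3K27ac summit, so the distances and sides given for these 73 are a description of the selected peaks. The 72 partner peaks held 75 PHF6 peaks, with a median summit height of 36 (quartiles 27 and 42) against 22 for all PHF6 peaks. PHF6 heights inside other H3K27ac peaks were not compared. The PHF6 summit nearest to the H3K27ac summit was a median of 109 bp from it (26.3 and 503), and within 100 bp in 35 of 72 (48.6%, 36.7 to 60.7). The H3K27me3 summit was a median of 1457 bp (1087 and 1977) from the nearest H3K27ac summit. It was 1497 bp (1136 and 2142) from the nearest PHF6 summit. All PHF6 summits of the partner lay on the same side of the H3K27me3 summit as the H3K27ac summit in 71 of 73 cases. The gap between the H3K27me3 peak and the nearest PHF6 edge was a median of 214 bp (109 and 476).

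The 10 peaks with the tallest acetylated partners all had a partner that held PHF6. The tallest partner, with an H3K27ac height of 369, met the peak on chromosome 3 at 58325927 to 58328089 (band qD), whose H3K27me3 height was 30. A partner of height 368 met the peak on chromosome 1 at 74284754 to 74285881 (qC3), with an H3K27me3 height of 16 and 52 bp shared. On the same chromosome a partner of height 367 met the peak at 88253215 to 88254337 (qD), with an H3K27me3 height of 21. The H3K27me3 summits of these 3 lay 2262, 1977 and 1950 bp from the H3K27ac summit. Further partners of height 358 to 364 were on chromosomes 2, 4, 6 and 8. Not all of the 10 met acetylation at an edge. The H3K27me3 peaks on chromosome 2 at 144092702 to 144093437 (qG1) and on chromosome 8 at 96911970 to 96913144 (qC5) lay wholly inside the H3K27ac peak. On chromosome 6 at 108772241 to 108773748 (qE2) the summits were 5909 bp apart and 10 bp was shared. The H3K27me3 heights of the 10 ran from 12 to 31, around the median of 23 of all 249.

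Where the partner held no PHF6, the acetylated peak was lower and narrower than in the flanking arrangement and covered more of the trimethylated peak. The split itself favours this order of widths, since a flanking partner has to reach both PHF6 and H3K27me3. The H3K27ac partners of these 176 had a median height of 36 (quartiles 27 and 61), close to the median of 35 of the whole H3K27ac list. When each was set against each partner of the flanking arrangement, the PHF6-free one was the taller in 5.65% of pairs, ties split evenly. Their median width was 886.5 bp, and 853 bp without the 20 peaks of a chromosome 8 domain of wide acetylation described further on. Shared stretches had a median of 623 bp (525 and 812) and covered a median of 71.6% of the H3K27me3 peak (46.5 and 94.8). The H3K27me3 and H3K27ac summits were a median of 280.5 bp apart (144 and 803). Each summit lay inside the other peak in 105 of 176 (59.7%, 52.0 to 67.0). The count in the flanking arrangement was 2 of 73, which the exclusion of PHF6 from the H3K27me3 peak largely fixes where PHF6 lies near the H3K27ac summit. The nearest PHF6 edge was a median of 16.2 kb away (5.78 and 40.9), and 40 of 176 (22.7%, 16.8 to 29.6) had one within 5 kb.

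Over all 249, medians of coverage and of summit distance mixed the 2 arrangements. H3K27ac covered a median of 60.5% of the peak (quartiles 32.2 and 92.8), against 86.4% (56.2 and 100) for the 931 acetylated peaks with PHF6. Summit distances had medians of 685 bp (187 and 1444) and 491 bp (147 and 992). The longer distance rested on the 73 flanking peaks, since the median of the other 176 was 280.5 bp, below that of the peaks with PHF6. The plot of partner height by summit distance shows the 2 arrangements apart.

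**Figure D1:**
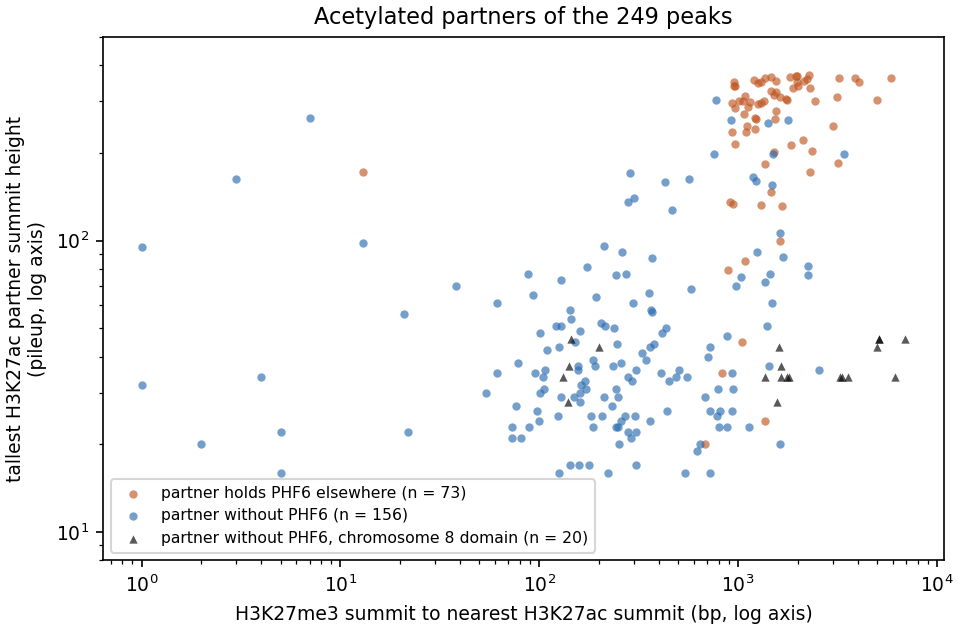
Each point is 1 of the 249 H3K27me3 peaks; x is the distance from its summit to the nearest H3K27ac summit (bp, log axis) and y the summit height of its tallest H3K27ac partner (pileup, log axis). Orange points (n = 73), whose partner holds PHF6 elsewhere, gather at high partners and distances near 1457 bp, and the other peaks lie mostly at partner heights below 100; triangles are the 20 peaks of a chromosome 8 domain.

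H3K27me3 itself was also taller where the partner was PHF6-free. The median H3K27me3 height was 24 (quartiles 17 and 38.3) in these 176 peaks and 19 (15 and 28) in the 73 flanking peaks, so the ranges overlapped widely. A peak of the first kind outranked one of the second in 61.8% of pairs. Widths were close, with medians of 1007.5 and 991 bp. H3K27me3 and H3K27ac heights showed little relation over the 176, with a Spearman's rho of 0.14, and a modest positive one over the 73, with 0.30. The coefficient was 0.33 over the 931 peaks with H3K27ac and PHF6, and -0.0022 over all 249 together. These points share libraries, so the coefficients are descriptions.

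The 249 peaks had a higher median H3K27me3 height than each other class of the list, while in width they lay between the other classes. Their median H3K27me3 height was 23 (quartiles 16 and 34, range 10 to 260). It was 18 (14 and 26) for the 931 peaks with H3K27ac and PHF6, 16 (14 and 22.5) for the 527 with PHF6 alone and 16 (13 and 21) for the 3909 with neither. One of the 249 outranked a peak of these classes in 62.1%, 67.7% and 70.9% of pairs, ties split evenly. These shares were 65.2%, 70.8% and 73.7% for the 176 with a PHF6-free partner. For the 73 flanking peaks they were 54.5%, 60.4% and 63.9%, so these differed little in height from the peaks with H3K27ac and PHF6. Median widths in the same order were 1002, 1210, 996 and 883 bp, so the peaks with H3K27ac and PHF6 were the widest. One of the 249 was the wider in 37.7%, 50.4% and 59.4% of pairs. A wider peak meets other peaks more easily, so grouping by overlap by itself favours this order of widths, which is a description. Heights of at least 100 were reached by 9 of the 249 (3.61%, 1.67 to 6.75), 17 of the 931 (1.83%, 1.07 to 2.91), 2 of the 527 (0.380%, 0.0460 to 1.36) and 17 of the 3909 (0.435%, 0.254 to 0.695). The interval of the 249 overlapped that of the 931 and lay above those of the last 2 classes. By score the order was the same but the distance from the peaks with H3K27ac and PHF6 was smaller, with one of the 249 the higher in 54.3% of pairs.

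**Figure D2:**
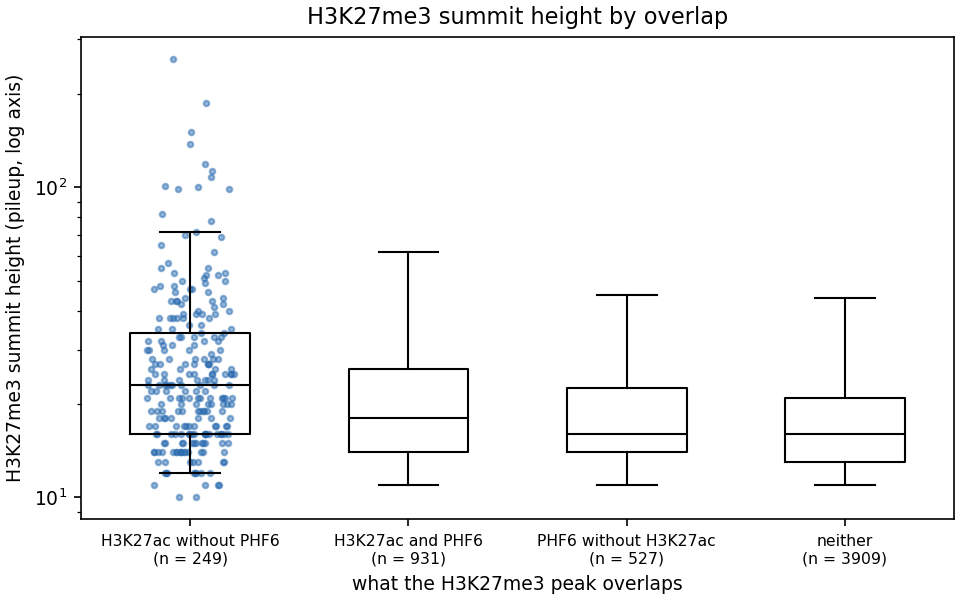
H3K27me3 summit height (pileup, log axis) of peaks grouped by what they overlap; boxes show the quartiles and median, whiskers the 5th to 95th percentile, and points the 249 peaks with H3K27ac and without PHF6. Their median of 23 is above the medians of 18, 16 and 16 of the other classes, and the boxes overlap.

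Among acetylated H3K27me3 peaks, those lacking PHF6 were more frequent at greater H3K27me3 height. The share without PHF6 was 12.1% (8.66 to 16.3) at heights below 15, with 37 of 306 peaks. It was 18.1% (14.1 to 22.6) from 15 to below 20, 25.3% (20.3 to 30.8) from 20 to below 30 and 33.5% (26.2 to 41.5) from 30 to below 50. Above that the counts were small, with 19 of 77 from 50 to below 100 (24.7%, 15.6 to 35.8) and 9 of 26 at 100 or more (34.6%, 17.2 to 55.7). The lowest 2 ranges had intervals below that of the range from 30 to below 50.

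Seen from the H3K27ac list, acetylated peaks that met H3K27me3 lacked PHF6 less often than those that did not. No PHF6 was found in 162 of 1158 H3K27ac peaks with H3K27me3 (14.0%, 12.0 to 16.1) and in 9013 of 31230 without it (28.9%, 28.4 to 29.4). The same order held in each height range. At H3K27ac heights from 30 to below 50 the shares were 26.2% (20.4 to 32.7) and 54.8% (53.3 to 56.4), the highest of any range for both kinds. At heights of 200 or more they were 1.60% (0.438 to 4.05) and 4.57% (4.10 to 5.08). The 159 PHF6-free H3K27ac peaks met by the 249 had a median height of 36 and a median width of 856 bp. The 9013 without H3K27me3 had 31 and 1412 bp, so the former were narrower, with 28.9% of pairs in which they were the wider.

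**Figure D3:**
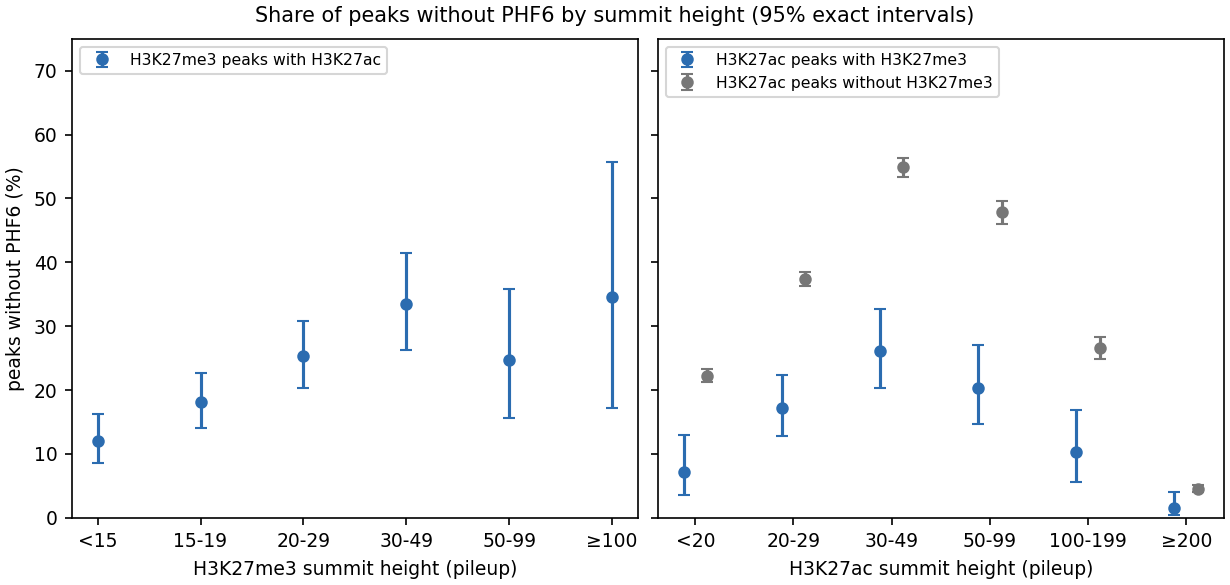
Share of peaks without PHF6 (%, with 95% exact intervals) by H3K27me3 summit height for acetylated H3K27me3 peaks (left) and by H3K27ac summit height for H3K27ac peaks with or without H3K27me3 (right), heights in pileup. On the left the share runs from 12.1% below 15 to 33.5% between 30 and 49, and on the right H3K27ac peaks with H3K27me3 lie below the others in each range.

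A few tall acetylated peaks held no called PHF6 peak. Only 4 H3K27ac peaks of height 200 or more met H3K27me3 without holding PHF6, and they met 5 of the 249. One, of height 304 and with a score at the ceiling, enclosed the H3K27me3 peak on chromosome 9 at 7836231 to 7836800 (qA1), with the nearest PHF6 edge 35.3 kb away. Another, of height 260, met 2 H3K27me3 peaks on chromosome 7 between 106629733 and 106631416 (qE2), with heights of 33 and 47. A peak of height 254 met the one on chromosome 11 at 29445772 to 29446796 (qA3.3), where 107 bp was shared. These sites were picked out after their values were seen. The remaining one, on chromosome 12, is described next.

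The 3 tallest H3K27me3 summits of the set had an acetylation summit within 7 bp. The highest was on chromosome 12 at 3109508 to 3110288 (qA1.1), with an H3K27me3 height of 260 and an H3K27ac height of 263, and summits 7 bp apart. The second, on the same chromosome at 75904456 to 75905757 (qC3), had heights of 187 and 162 and summits 3 bp apart. The third, on chromosome 4 at 64158591 to 64159485 (qC1), had 151 and 95, with summits 1 bp apart. The H3K27me3 peaks were 781, 1302 and 895 bp wide. Each H3K27ac peak lay wholly inside the H3K27me3 peak, and the nearest PHF6 edge was 40.9, 121.7 and 41.4 kb away. Height and score ranked these sites differently. The H3K27ac scores were 589, 79.4 and 75.6, while the median score of the 10531 H3K27ac peaks with a height of at least 95 was 3100. Of these 10531, 5 had a score below 100, and 2 of the 5 were the partners on chromosome 12 at 75904456 and on chromosome 4. The limit of 95 equals the height of the chromosome 4 partner. At heights of at least 100, which leaves that partner out, 4 of 10306 had a score below 100. Their signal in input DNA was not analysed here.

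In all, 8 of the 249 had summits within 10 bp of each other (3.21%, 1.397 to 6.23), against 30 of the 931 with PHF6 (3.22%, 2.18 to 4.57). The 8 had H3K27me3 heights of 18 to 260. Within 100 bp the counts were 27 of 249 (10.8%, 7.27 to 15.4) and 176 of 931 (18.9%, 16.4 to 21.6). All 8 had a PHF6-free partner, as did 26 of the 27. Where PHF6 lies near the H3K27ac summit, its exclusion from the H3K27me3 peak largely fixes these counts.

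Of the other 7 tallest H3K27me3 summits, some had their acetylation to one side and others did not. On chromosome 19 at 10058236 to 10059738 (qA) the H3K27me3 height was 138 and the partner, of height 351, held PHF6 with its edge 165 bp from the H3K27me3 peak. On chromosome X at 151647347 to 151649970 (qF3) the heights were 119 and 106, with summits 1620 bp apart. On chromosome 14 at 67421300 to 67423777 (qD1) they were 113 and 61, with summits 1489 bp apart. These 3 had an H3K27me3 score of 3100, at the ceiling. The last 4 of the 10 had H3K27me3 heights of 99 to 108, and none of their partners held PHF6. On chromosome 10 at 71759519 to 71760266 (qB5.3) the summits were 4 bp apart, and the H3K27ac peak, of height 34, lay inside the H3K27me3 peak. On chromosome 16 at 76403334 to 76404250 (qC3.1) the H3K27ac peak, of height 96, also lay inside, with summits 211 bp apart. The peak on chromosome 10 at 61968397 to 61969972 (qB4) lay wholly inside an H3K27ac peak of height 64, with summits 192 bp apart. Its H3K27me3 score of 3159.87 was also at the ceiling. On chromosome 6 at 99827351 to 99828471 (qD3) the H3K27ac height was 58, the overlap was partial and the summits were 363 bp apart.

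The 249 peaks were mostly scattered. Joined at gaps of up to 5 kb they formed 224 regions, of which 216 were single peaks, 5 held 2 and 3 held more. Another H3K27me3 peak of any class lay within 5 kb of 58 of the 249 (23.3%, 18.2 to 29.0). That share was 32.1% (29.1 to 35.2) for peaks with H3K27ac and PHF6 and 28.8% (27.4 to 30.3) for those with neither. Without 1 domain on chromosome 8 it was 38 of 229 (16.6%, 12.0 to 22.1). Of the 3 larger regions, 1 was on chromosome 15 at 79909859 to 79913142 (qE1), where 3 H3K27me3 peaks of height 17 to 35 met a single H3K27ac peak of height 198. Among the pairs, those on chromosome 11 at 86398020 to 86400407 (qC) and on chromosome 7 at 110960899 to 110962528 (qE3) lay wholly under 1 H3K27ac peak of height 77 and 70, with no PHF6 peak in the region.

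The remaining 2 regions, with 8 and 12 peaks, were parts of that domain, which spanned 85.9 kb of chromosome 8 from 126062249 to 126148120 (qE2). It held 31 H3K27me3 peaks that covered 90.0% of its length, with no gap above 0.831 kb. Their heights ran from 13 to 23 with a median of 17, near the list's median of 16. Acetylation had outer borders close to these: the first H3K27ac peak began 1212 bp before the domain and the last ended 471 bp after it. The 8 H3K27ac peaks covered 59.99 kb with heights of 28 to 46, and were up to 13449 bp wide. Only 75 H3K27ac peaks of the whole list exceeded 10 kb, and 3 of them were here. A gap of 27.01 kb in the middle, with 4 H3K27ac peaks on each side, contained the 11 H3K27me3 peaks that met neither list. No PHF6 peak was called inside. In stretches of the same length before and after it there were 19 and 12 PHF6 summits, 7 and 1 H3K27ac summits and 1 and 0 H3K27me3 summits. The nearest PHF6 edges lay 6.96 kb before and 21.0 kb after it. Input DNA over the domain was not analysed here, so the number of copies of this stretch in the culture is unknown and its part in these values was not tested.

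**Figure D4:**
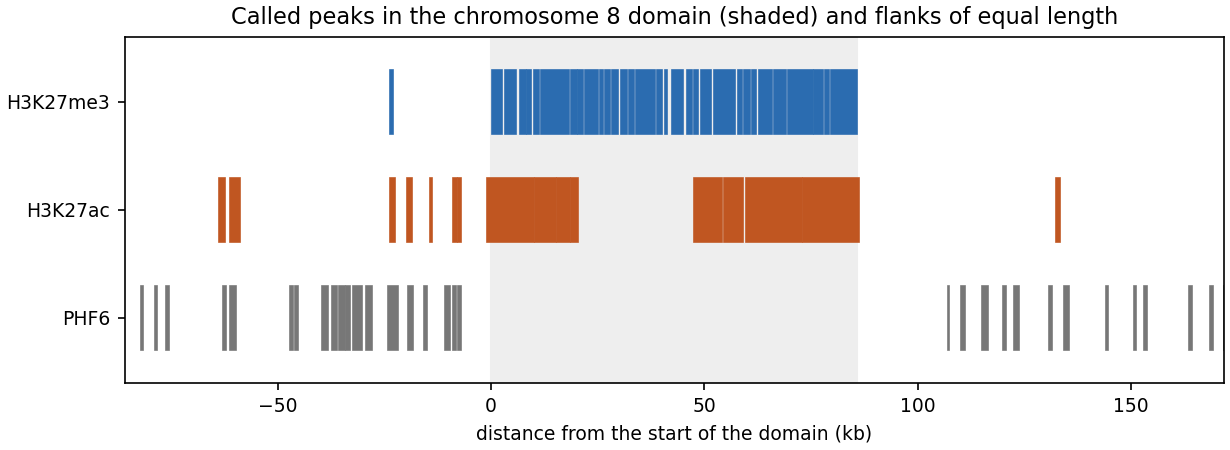
Called peaks of the 3 lists (rows) along the chromosome 8 domain, shaded, and flanks of equal length; x is the distance from the domain's start in kb. H3K27me3 peaks fill the 85.9 kb, H3K27ac peaks fill 2 blocks with outer borders close to these, and PHF6 peaks are seen only in the flanks.

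The 5 longest overlaps with H3K27ac all came from this domain. They shared 3482 to 6697 bp, and the longest was on chromosome 8 at 126073742 to 126080477, with an H3K27me3 height of 16 and partners of heights up to 34. The 20 peaks of the domain were wider than the rest, with a median of 2089 bp against 975 bp for the other 229. They were lower, with a median H3K27me3 height of 18 against 24.

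Chromosome 8 therefore held the most of the 249, with 32 (12.9%, 8.96 to 17.7), against 4.90% of all H3K27me3 peaks. Chromosome X held 17 (6.83%, 4.03 to 10.7), against 4 of the 931 with H3K27ac and PHF6 (0.430%, 0.117 to 1.10) and 174 of the 3909 with neither (4.45%, 3.83 to 5.15). On chromosome X, 17 of 21 acetylated H3K27me3 peaks lacked PHF6 (81.0%, 58.1 to 94.6), and on the autosomes 232 of 1159 (20.02%, 17.7 to 22.4). H3K27ac peaks without H3K27me3 also lacked PHF6 more often on chromosome X, in 51.8% (47.8 to 55.8) against 28.4% (27.9 to 28.9). Of the H3K27ac peaks with H3K27me3, 13 of 21 on chromosome X lacked PHF6 (61.9%, 38.4 to 81.9), against 13.1% (11.2 to 15.2) on the autosomes. The order seen over the whole genome, with PHF6 lacking less often where H3K27me3 was met, was thus not seen on chromosome X, where the intervals overlapped. The 17 peaks on chromosome X had a median H3K27me3 height of 27 and a range of 12 to 119, and 4 of them had a partner that held PHF6. Autosomes ranged from 6.02% of acetylated H3K27me3 peaks without PHF6 on chromosome 17, with 5 of 83, to 38.1% on chromosome 8, with 32 of 84, of which 20 were in the domain. Chromosome Y held none of the 249, and none of its 23 H3K27me3 peaks was acetylated.

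By cytogenetic band, 37.8% (31.7 to 44.1) of the 249 lay in light bands, which are gene-rich, and 24.9% (19.7 to 30.8) in the darkest. The 931 peaks with H3K27ac and PHF6 had 50.7% (47.4 to 54.0) and 15.5% (13.2 to 17.95), and the 3909 with neither had 43.8% (42.2 to 45.3) and 26.3% (24.9 to 27.7). Without the chromosome 8 domain, the 229 peaks had 41.0% (34.6 to 47.7) in light bands and 27.1% (21.4 to 33.3) in the darkest. Over all 5616 H3K27me3 peaks, 45.6% (44.3 to 46.9) lay in light bands and 23.3% (22.2 to 24.4) in the darkest. In the darkest bands the share of the 249 was thus near that of all H3K27me3 peaks. In light bands the interval of the 249 lay below 45.6%, while that of the 229 held it.

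By summits within 50 kb, PHF6 was sparser around the 249 than around the other acetylated H3K27me3 peaks, which were grouped by holding PHF6. By that count it was not sparser than around H3K27me3 peaks in general. Within 50 kb of the H3K27me3 summit there was a median of 4 PHF6 summits (quartiles 1 and 9), against 12 (5 and 20) for the 931 with PHF6, which count at least 1 by the rule, and 2 (1 and 5) for peaks with neither. Over all 5616 H3K27me3 peaks the median was also 4 (1 and 10), and it was 12 (6 and 19) for the 527 with PHF6 alone. H3K27ac summits in the same window had medians of 3 for the 249, 5 for the 931 and 1 for peaks with neither. The distance from the 249 to the nearest PHF6 edge had a median of 6.69 kb (0.634 and 27.9). It was 10.6 kb (3.27 and 29.9) for peaks with neither. Over all 5616 it was 4.77 kb (0 and 20.4), where peaks that met PHF6 count as 0. The median was 0.214 kb for flanking peaks and 16.2 kb for those with a PHF6-free partner. The split by PHF6 in the partner largely fixes this difference. Peaks with a PHF6-free partner were farther from PHF6 than a peak with neither in 57.6% of pairs, and in 55.8% without the chromosome 8 domain. They lack PHF6 over the whole partner by the split, which itself favours longer distances.

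**Figure D5:**
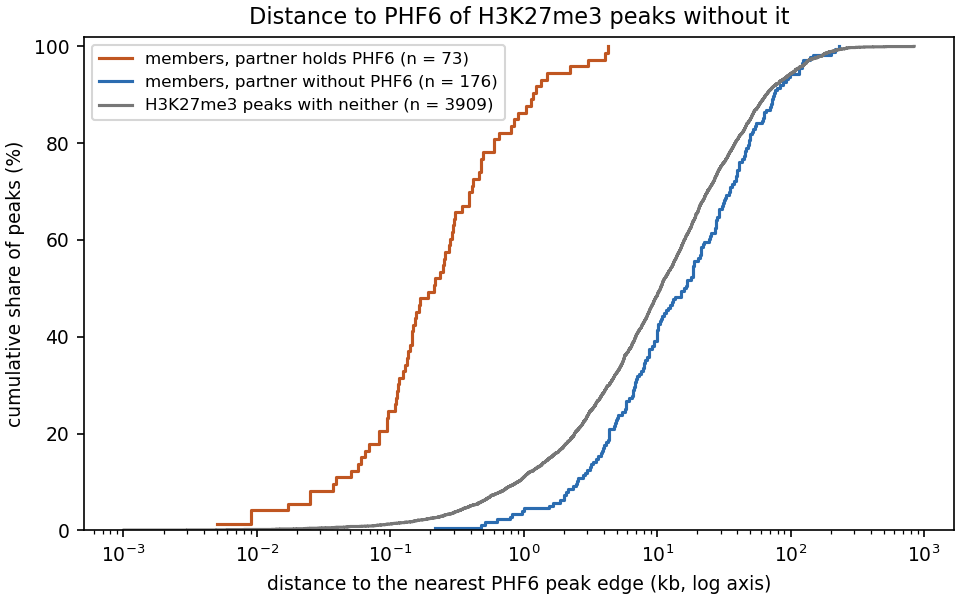
Cumulative share of peaks (%) by distance to the nearest PHF6 peak edge (kb, log axis) for the 73 peaks whose partner holds PHF6, the 176 whose partner does not, and the 3909 H3K27me3 peaks that meet neither list. The medians are 0.214, 16.2 and 10.6 kb.

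The 5 farthest from PHF6 had H3K27ac heights of 20 to 47, on either side of the H3K27ac list's median of 35. The peak on chromosome 14 at 74196119 to 74197442 (qD3) lay 231.9 kb from the nearest PHF6 edge, with heights of 25 for H3K27me3 and 38 for H3K27ac and summits 78 bp apart. The next were on chromosome 2 at 175095853 to 175096768 (qH4), at 215.9 kb, and on chromosome X at 141949416 to 141949781 (qF2), at 202.2 kb. Their H3K27ac heights were 23 and 20. The last 2 of the 5 were on chromosome 1 at 98920843 to 98922691 (qD), at 147.6 kb, and on chromosome X at 50125418 to 50126030 (qA5), at 138.8 kb. Their H3K27ac heights were 47 and 32. At the other end, the 5 nearest to PHF6 had gaps of 5 to 25 bp, H3K27me3 heights of 11 to 16 and partners that all held PHF6.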

How the data were processed

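Peaks came from 3 ChIP-seq libraries of mouse pre-B leukemia cells, 1 per antibody. Per the submitters' processing notes, Bowtie2, SAMtools and MACS 1.4.0 were used with build mm9, in an order and with options not given in the sources used here. The names of the deposited lists give a threshold of 1e-6 and mark PHF6 and H3K27ac, but not H3K27me3, as called without local lambda. The deposited score has a ceiling near 3100, and the deposited summit signal is a pileup height of at most 400. Both are the authors' values and were compared within 1 list only. Depth is unknown. Positions are 1-based mm9. Bands came from circlize 0.4.16 (R 4.3.3) and the rest was computed with Python 3.11.15 (matplotlib 3.10.9, scipy 1.17.1, pandas 2.3.3, numpy 2.4.6). Overlap routines were checked on simulated lists. Intervals are Clopper-Pearson. The genes and sequence under the peaks were not analysed here, since the gene table at hand belongs to another build. The regions, rules and alternatives were chosen with earlier results of these data known. Regions named are the 10 tallest by H3K27me3 and by H3K27ac partner, the 5 nearest to and farthest from PHF6, the 5 longest overlaps and joined regions of 3 or more, printed in part.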

Additional observations from a re-analysis of the deposited data

How the results depend on the processing

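Of 63 values recomputed under other settings, 40 stayed within the 95% interval of the reported value or, for the number of joined regions, within 1.5 times the count. The share of H3K27me3 peaks with H3K27ac and without PHF6 (4.43%) was 3.19% with no PHF6 edge within 1 kb, 2.42% within 5 kb, 3.67% with an overlap of 50% of the shorter peak, 3.74% with either summit within the partner, 6.49% when every one of the 3 lists was limited to scores of at least 100 and 5.31% at that score in the 2 histone lists. As a share of acetylated peaks (21.1%) it was 15.2%, 11.5% and, at a score of at least 100 in all lists, 25.5%. The distance between H3K27me3 and H3K27ac summits (685 bp) was 294 and 271.5 bp with no PHF6 edge within 1 and 5 kb, 360 bp with the 50% rule, 365.5 bp with the summit rule and 940 bp at the score limit in the histone lists. The distance to PHF6 (6.69 kb) was 15.2 and 26.2 kb with no edge within 1 and 5 kb, which removes near peaks by construction, and 12.1 kb at the score limit in all lists. The share covered by H3K27ac (60.5%) was 79.4% with the 50% rule. The height of the H3K27ac partners (51) was 37 and 36, and the share of peaks whose partner held PHF6 (29.3%) 5.59% and 0%, with no PHF6 edge within 1 and 5 kb, and that share was 22.1% at the score limit in all lists. The 1 and 5 kb settings remove most or all flanking peaks by construction. The score limit in all lists removes PHF6 peaks, which by itself favours more peaks without PHF6, longer distances to it and fewer partners that hold it. With the limit in the 2 histone lists only, the share of acetylated peaks without PHF6 was 20.9% and the distance to PHF6 6.12 kb. The share whose partner held PHF6 was then 31.9%. Other causes were not tested. The median H3K27me3 height stayed between 22 and 25 throughout. Alternatives that need mm9 genes were not run. Runs without the chromosome 8 domain, without coincident summits and on partners holding PHF6 were chosen after seeing the data. No paired analysis was possible because there was a single library of each kind.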
